A study of Mus musculus with 12 samples.

Results

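The Notch genes examined here are 10 genes listed by name: the ligands Dll1, Dll3 and Jag1, the receptors Notch1, Notch2 and Notch3, the fringe enzyme Lfng, and the transcriptional targets Hes1, Hes5 and Hey1. They are 10 of 48709 Ensembl genes in the count files, and all 10 passed the filter on low counts in every comparison. RNA was sequenced from 12 samples of C57BL/6 mouse hypothalamic cells taken at embryonic day 18, infected with a virus at a multiplicity of infection of 10, and grown for a week as floating neurospheres with 10 ng/ml of basic fibroblast growth factor. The cells were then sorted into 4 groups of 3 samples, which the labels call EGFP positive and negative and mCherry positive and negative. The mCherry reporter for cells that make hypocretin (Hcrt) came with an adeno-associated virus, and the EGFP reporter for cells that make melanin-concentrating hormone (MCH, gene Pmch) came with a lentivirus. All 4 groups received virus and growth factor, so the reporter-negative samples are infected cells without detected reporter and not untreated cells. Virus, reporter and RNA input (0.8 ng for Hcrt cells, 2 ng for MCH cells) differ together between the sorts and cannot be told apart. The labels do not give the promoter that drives each reporter, nor do they say that replicates were separate cultures, so every p-value rests on a spread between samples that may be technical only.

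Notch signalling passes between touching cells. A Delta or Jagged ligand on one cell binds a Notch receptor on its neighbour, the receptor is cut, and its intracellular part joins the DNA-binding protein RBPJ in the nucleus and switches on repressors of the Hes and Hey families. Those repressors hold back proneural factors, which themselves switch on Delta genes, so that in the developing brain ligand-rich cells tend to become neurons while their Hes-rich neighbours stay progenitors or become glia.

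The labelled reporter identity differed between the sorts in how far it showed in the RNA. Pmch stood at 17.3 to 19.1 CPM (counts per megaread in genes, scaled by TMM factors) in EGFP positive libraries and at 3.94 to 5.03 in EGFP negative libraries. Hcrt stood at 0.0923 to 0.393 CPM in mCherry positive and 0.0321 to 0.227 CPM in mCherry negative libraries, from 21 and 11 reads, with overlapping ranges. The libraries held 16.3 to 32.9 M reads (megareads) in genes. Transcripts of 7 anterior pituitary genes summed to 2261 and 5097 CPM in mCherry positive replicates 2 and 3 and to 7.22 CPM in replicate 1. They summed to 219 and 172 CPM in mCherry negative replicates 2 and 3 and to 349 to 456 CPM in EGFP negative libraries. Microglia markers summed to 598 CPM in mCherry positive replicate 1 and to 68.1 and 74.1 CPM in replicates 2 and 3. The balance of long against short genes also varied within groups. The median difference, on a centred log2 CPM scale, was lowest of its group in EGFP positive replicate 1 (-0.60) and in mCherry negative replicate 3 (-0.43). It was -0.11 to 0.42 in the other mCherry negative libraries and -0.10 to 0.31 in the other EGFP positive libraries.

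Of the 3 ligands, Dll3 was called lower in both sorts and Jag1 was called in neither. Dll1 was called lower in the mCherry sort and had the same sign in the EGFP sort, where it was not called by edgeR. In the mCherry sort, 2 members were lower and 0 were higher in positive than in negative cells at an adjusted p under 0.05 (quasi-likelihood test of edgeR, Benjamini-Hochberg adjustment over 17369 genes), beside 1.20% of all genes tested (0.656% lower). In the EGFP sort, 1 member was lower and 2 were higher, beside 16.1% of the 16326 genes tested (8.99% higher and 7.07% lower). At an unadjusted p under 0.05 the mCherry sort gave 2 members higher and 3 lower. DESeq2 called 1 higher (Notch2) and 3 lower (Dll1, Dll3 and Hes5) there, and limma-voom called 0 higher and 2 lower. The shares of all genes for the unadjusted, DESeq2 and limma-voom counts are not given here. Without those shares, the unadjusted, DESeq2 and limma-voom counts cannot be compared with other genes. The members were chosen with earlier results of these data known, so the edgeR counts are no test of whether members are called more often. In these bulk samples, fewer cells of a type and less RNA per cell cannot be told apart.

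**Figure D1:**
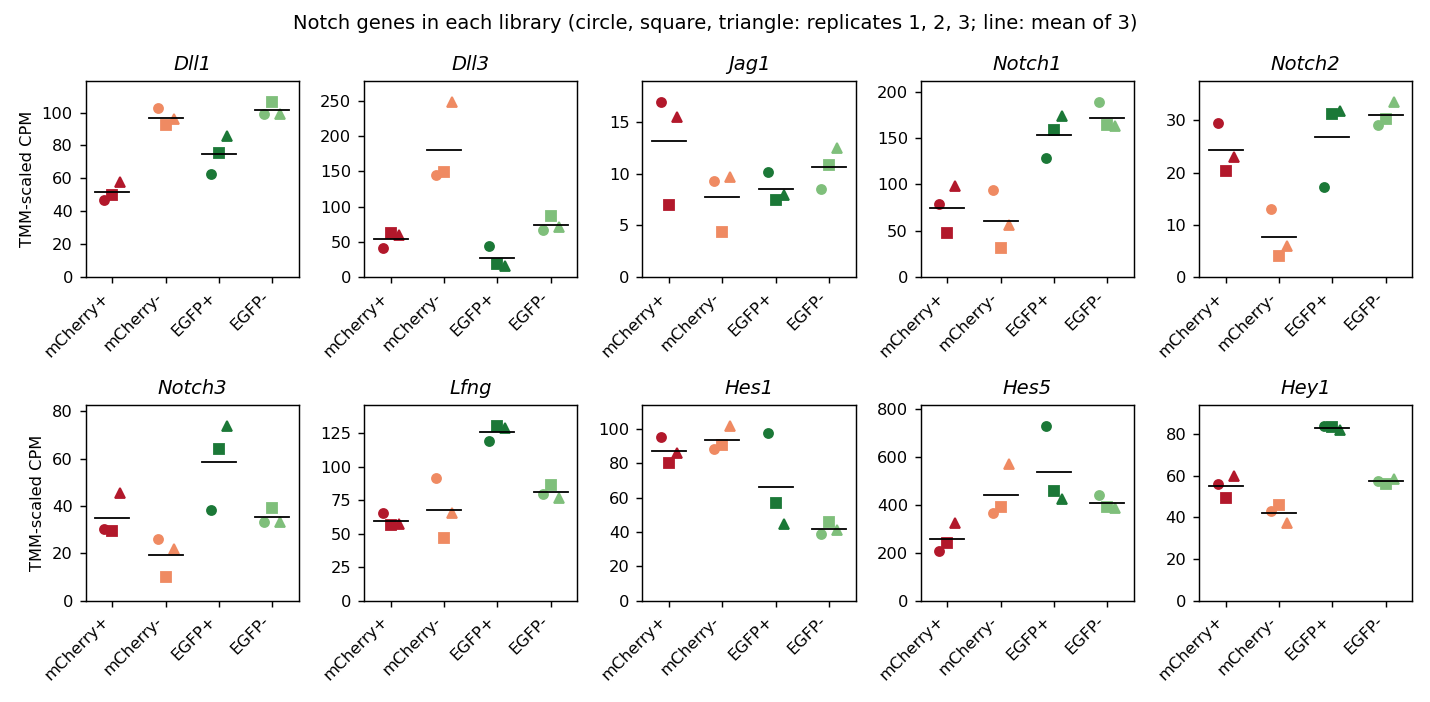
TMM-scaled CPM (vertical axes, starting at 0) of the 10 Notch genes in the 12 libraries, by group; symbols mark replicates 1, 2 and 3 and lines mark means of 3. The Dll1 and Dll3 points of both positive groups lie below those of their own negative group, and the Lfng and Hey1 points of EGFP positive libraries lie above those of EGFP negative libraries.

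Dll3 is a divergent Delta-like protein that stays largely inside the cell and is known to dampen Notch signalling in the cell that makes it (GRCm38 chr7:28293553-28302238, minus strand). In replicate order its level was 41.0, 62.3 and 59.0 CPM in mCherry positive libraries and 145, 150 and 249 CPM in mCherry negative libraries. In the EGFP sort it was 44.6, 19.0 and 15.3 CPM in positive and 66.0, 86.2 and 70.8 CPM in negative libraries. The groups of each sort did not overlap. EGFP positive replicate 1 lay above the other 2 of its group, and mCherry negative replicate 3 lay above the other 2 of its group. Dll3 fell by 1.73 ± 0.26 on the log2 scale (SE, 3 against 3 samples, adjusted p = 0.0316, edgeR) in the mCherry sort and by 1.53 ± 0.35 (adjusted p = 0.0168, edgeR) in the EGFP sort. The effects differed by -0.23 ± 0.47 (mCherry effect minus EGFP effect, adjusted p = 0.866, edgeR), an interval wide enough to hold differences in either direction.

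Dll1 is the Delta-like ligand that activates Notch on neighbouring cells (chr17:15367354-15376872, minus strand). It stood at 47.1, 49.9 and 57.7 CPM in mCherry positive libraries and at 103, 92.3 and 95.8 CPM in mCherry negative libraries. The corresponding levels were 62.6, 75.7 and 86.1 CPM in EGFP positive and 99.3, 106 and 98.9 CPM in EGFP negative libraries. Neither pair of groups overlapped, and the negative groups of both sorts overlapped each other. Dll1 fell by 0.90 ± 0.17 on the log2 scale in the mCherry sort (adjusted p = 0.0435, edgeR). The EGFP value was -0.46 ± 0.14 and missed the threshold (adjusted p = 0.0519, edgeR). It passed with DESeq2 (adjusted p = 0.0208) and limma-voom (0.0468). In edgeR it passed with a stricter filter (0.0337), with the replicate number as a block (0.0252) and with an offset for gene length (0.0168). It missed in edgeR with DESeq2 size factors (0.0513), without a filter (0.0569) and in 1 fit of all 12 libraries (0.110). With 1 library left out, the edgeR adjusted p ran from 0.0184 to 0.196. Of the exonic bases of Dll1, 20.5% are shared with A930024N18Rik on the opposite strand, which had 163 reads over the 12 libraries. The strand setting of the counting is not given in the sources used here.

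Jag1, the Jagged-type ligand (chr2:137081456-137116644, minus strand), was the lowest of these 3 ligands per exonic kilobase in every group, at 1.33 to 2.25 RPKM as group means (reads per exonic kilobase and megaread). On the CPM scale it ranged from 6.92 to 16.9 CPM in mCherry positive and from 4.33 to 9.67 CPM in mCherry negative libraries, and from 7.46 to 10.1 CPM in EGFP positive and 8.51 to 12.5 CPM in EGFP negative libraries. All 4 ranges overlapped. Its log2 differences were 0.77 ± 0.43 (adjusted p = 0.364) in the mCherry sort and -0.34 ± 0.21 (adjusted p = 0.315) in the EGFP sort by edgeR.

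The make-up of the ligands per exonic kilobase was separated without overlap for Dll3 in the mCherry sort and overlapped in the EGFP sort. On the RPKM scale (TMM-scaled CPM per kilobase of the union of all annotated exons), Dll3 made up 71.4% ± 6.11 (SD, n = 3) of the summed level of the 3 ligands in mCherry negative cells and 56.4% ± 6.08 in mCherry positive cells. Its share was 50.03% ± 2.42 in EGFP negative and 31.3% ± 15.2 in EGFP positive cells, where single libraries ranged from 19.8% to 48.5% against 48.1% to 52.8% in EGFP negative cells. These shares were not tested. Dll1 had a mean share of 63.5% ± 15.4 in EGFP positive cells, from 46.1% to 75.2%, and in replicate 1 the Dll3 share was the larger. Jag1 held 1.51% to 6.94% of the summed ligand level as a mean of each group.

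A Dll1 promoter window is shown because Dll1 is an activating ligand and proneural factors bind E-boxes. The sequence runs from 250 bases before the second of 2 RefSeq starts of Dll1 (GRCm38.p6, chr17:15376933-15377182, minus strand, read 5′ to 3′ along the gene), with the E-box letters CAGCTG in capitals.

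Dll1, second start: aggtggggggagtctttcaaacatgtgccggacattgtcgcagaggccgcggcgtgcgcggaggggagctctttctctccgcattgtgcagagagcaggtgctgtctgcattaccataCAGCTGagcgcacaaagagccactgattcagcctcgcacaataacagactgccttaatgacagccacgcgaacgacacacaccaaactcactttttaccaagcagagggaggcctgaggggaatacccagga

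The E-box letters occur 1 time in that window, at 132 to 127 bases before the start, and they occur on either strand in 13.0% of 32851 RefSeq promoter windows of the same length. They are absent from the window of the first Dll1 start. They also occur in the windows of Dll3 (7 to 2 bases before the start), Jag1 (82 to 77) and Lfng (146 to 141). Such a match is a description of letters and not a binding site.

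Markers of other cells moved beside the Delta genes. In the mCherry sort, 4 of 7 cell cycle genes were lower in positive cells and 0 were higher, and their summed level was 212 to 317 CPM in positive against 599.6 to 770 CPM in negative libraries. In the EGFP sort, 6 of 7 oligodendrocyte-lineage genes (a list that includes Olig1 and Pdgfra of the precursors) were lower in positive cells, with sums of 1397 to 1442 CPM against 4142 to 4339 CPM. In the same sort 5 of 7 neuron genes were lower (sums of 757 to 1053 against 1148 to 1189 CPM), as were 6 of 7 microglia genes (7.62 to 8.57 against 32.6 to 43.9 CPM, with 1 gene higher). Of the anterior pituitary genes, 3 of 6 tested were lower (39.98 to 68.2 against 349 to 456 CPM). In the mCherry sort the same oligodendrocyte list was not called in any gene (edgeR) and its sums overlapped, at 3161 to 4868 CPM in positive and 3469 to 4143 CPM in negative libraries. Endothelial markers summed to 3.59 to 6.40 CPM in all 12 libraries. None of the oligodendrocyte, cell cycle or neuron markers was at 0 in any group, while the endothelial markers Cdh5, Tie1 and Tek had no read in EGFP positive libraries. The part of these cells in the ligand values was not tested.

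**Figure D2:**
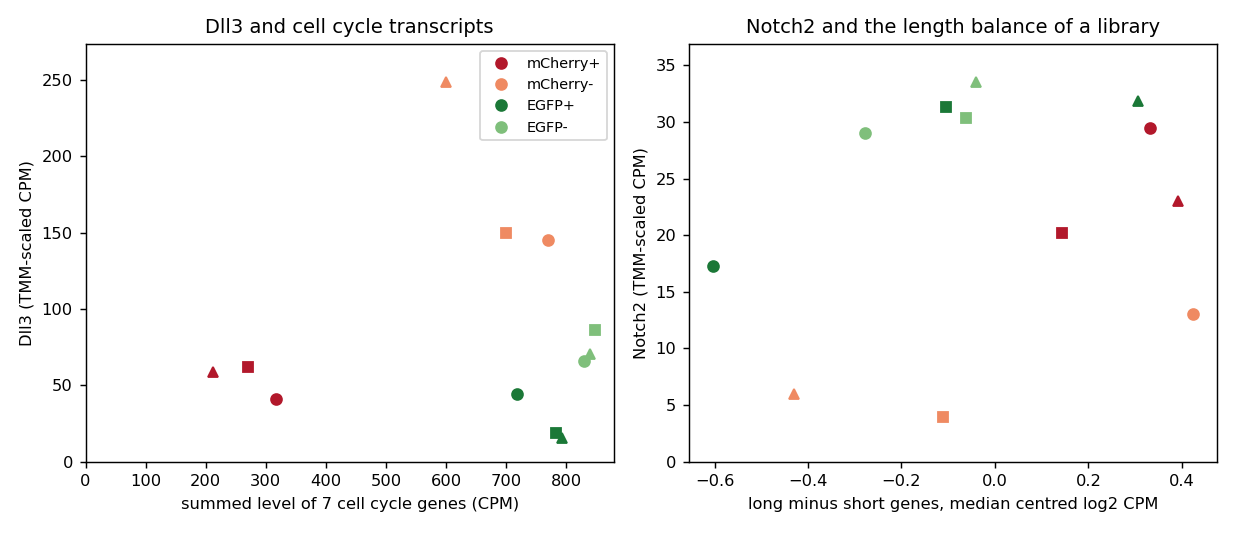
Left, Dll3 (TMM-scaled CPM) against the summed CPM of 7 cell cycle genes; right, Notch2 (TMM-scaled CPM) against the long-minus-short gene balance of each library (median centred log2 CPM); symbols are single libraries by replicate. The mCherry positive libraries sit between 212 and 317 CPM of cell cycle transcripts and between 41.0 and 62.3 CPM of Dll3, and the 3 mCherry negative libraries hold the lowest Notch2 levels, from 3.96 to 13.0 CPM.

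Receptor transcripts differed between sorts. None of the 3 receptors was called between positive and negative cells in either sort by edgeR, and 2 of them were lower in mCherry negative than in EGFP negative cells. Notch2 (chr3:98013527-98150361, plus strand) stood at 13.0, 3.96 and 5.95 CPM in mCherry negative libraries, the lowest of any group. In the other groups it was 29.5, 20.2 and 23.0 CPM (mCherry positive), 17.3, 31.3 and 31.8 CPM (EGFP positive) and 29.0, 30.3 and 33.5 CPM (EGFP negative). The mCherry groups did not overlap, and the EGFP groups did. The log2 difference was 1.67 ± 0.42 in the mCherry sort (adjusted p = 0.0846, edgeR) and -0.22 ± 0.22 in the EGFP sort (adjusted p = 0.562, edgeR). The difference between these effects was 1.86 ± 0.50, and it did not pass the threshold (adjusted p = 0.0881, edgeR). Without a filter on low counts, both the mCherry effect (adjusted p = 0.0138) and the difference (adjusted p = 0.00612) passed in edgeR, and both passed with DESeq2.

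Notch1, the receptor best known for keeping neural progenitors undifferentiated (chr2:26457903-26516663, minus strand), was higher in the EGFP sort as a whole. It measured 79.1, 47.3 and 97.7 CPM in mCherry positive libraries and 94.2, 31.2 and 55.7 CPM in mCherry negative libraries. Levels in the EGFP sort were 129, 158 and 174 CPM in positive and 189, 164 and 163 CPM in negative libraries. Every library of the EGFP sort lay above every library of the mCherry sort. Within sorts the groups overlapped, with log2 differences of 0.32 ± 0.38 (adjusted p = 0.692, mCherry) and -0.18 ± 0.13 (adjusted p = 0.410, EGFP) by edgeR. With 1 library left out, the mCherry value ran from 0.017 (without mCherry negative replicate 2) to 0.79 (without mCherry negative replicate 1).

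Notch3 (chr17:32120820-32166852, minus strand), a receptor known from progenitors and from mural cells of vessels, had the same sign in both sorts. Its levels were 30.3, 29.4 and 45.4 CPM in mCherry positive and 25.9, 9.99 and 21.6 CPM in mCherry negative libraries. In the EGFP sort they were 38.4, 63.9 and 73.8 CPM in positive and 33.3, 39.0 and 33.1 CPM in negative libraries. The mCherry groups did not overlap, while EGFP positive replicate 1 lay within the range of the EGFP negative libraries. The log2 differences were 0.88 ± 0.35 (adjusted p = 0.214) and 0.72 ± 0.22 (adjusted p = 0.0558) by edgeR. With 1 library left out, the EGFP value ran from 0.53 to 0.96 (adjusted p 0.000135 to 0.182, edgeR). Of these fits, only the one without EGFP positive replicate 1, the library richest in short-gene reads, called it (0.96). With all 6 libraries it was called with DESeq2 (adjusted p = 0.0132) and not with limma-voom. In edgeR it was called without a filter (0.00675), with the replicate number as a block (0.0267) and with an offset for gene length (0.70, adjusted p = 0.0179). It was not called there with a stricter filter. Summed mural markers overlapped in the mCherry sort (77.7 to 89.0 CPM in positive and 69.0 to 130 CPM in negative libraries) and were lower in EGFP positive (84.8 to 121 CPM) than in EGFP negative libraries (148 to 153 CPM). Of the 7 mural genes, 5 were tested in the EGFP sort, with 3 higher and 1 lower in positive cells, and their part in the Notch3 values was not tested.

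Receptor make-up followed the same lines on the RPKM scale. Notch1 was the largest share of the 3 receptors in every group by its mean, from 43.6% ± 5.18 in mCherry positive to 62.5% ± 3.15 in EGFP negative cells (SD, n = 3). Notch2 held 9.46% ± 1.63 in mCherry negative and 19.5% ± 4.30 in mCherry positive cells. Notch3 held 22.5% ± 2.42 in EGFP negative and 34.8% ± 3.54 in EGFP positive cells, ranges that did not overlap (20.5% to 25.2% against 30.8% to 37.6%). The summed receptor level was 7.32 RPKM in mCherry negative, 11.8 in mCherry positive, 19.3 in EGFP negative and 20.5 in EGFP positive cells, as group means. The union exonic lengths behind these values, such as 14232 bases for Notch1, are longer than the main messenger RNA and lower the RPKM of a gene accordingly.

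**Figure D3:**
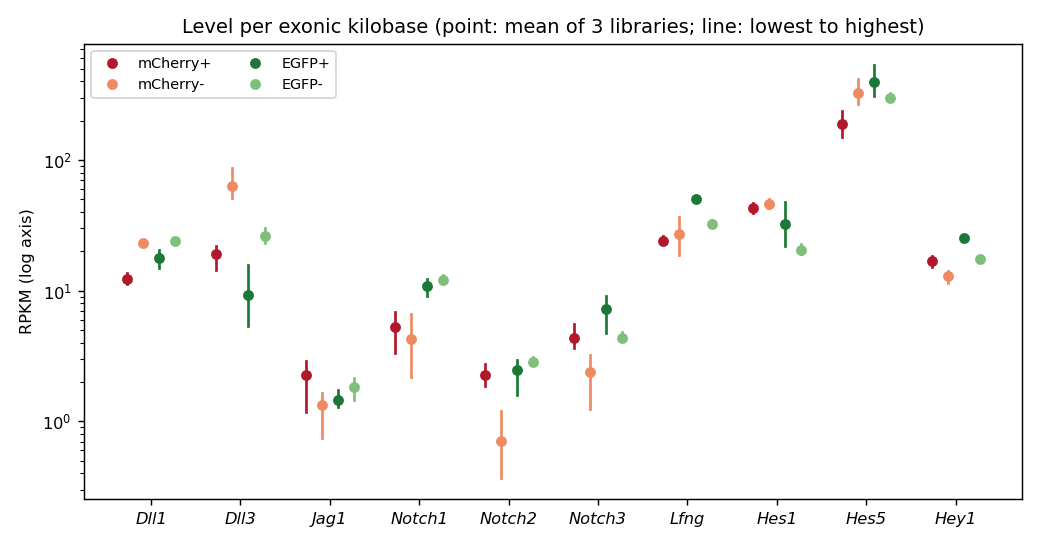
RPKM on a log axis (TMM-scaled CPM per exonic kilobase) for the 10 Notch genes in 4 groups; points are means of 3 libraries and lines run from the lowest to the highest library. Hes5 has the highest group means, from 189 to 394 RPKM, and Notch2 in mCherry negative cells the lowest, 0.710 RPKM.

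Lfng and Hey1 rose in EGFP positive cells. Lfng, a fringe enzyme, adds a sugar to Notch receptors and thereby shifts them towards Delta over Jagged ligands (chr5:140607320-140615545, plus strand). It stood at 119, 131 and 129 CPM in EGFP positive libraries and at 79.4, 86.5 and 77.0 CPM in EGFP negative libraries, with no overlap. The mCherry sort gave 65.4, 56.8 and 57.1 CPM in positive and 91.8, 46.8 and 65.7 CPM in negative libraries, which overlapped. Lfng rose by 0.62 ± 0.11 on the log2 scale in the EGFP sort (adjusted p = 0.00593, edgeR) and differed by -0.18 ± 0.24 in the mCherry sort (adjusted p = 0.732, edgeR). The difference between the effects was -0.83 ± 0.28 and was not called (adjusted p = 0.167, edgeR).

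Hey1, a basic helix-loop-helix repressor switched on by Notch (chr3:8663359-8667256, minus strand), had closely grouped replicates in the EGFP sort. It measured 83.9, 83.4 and 81.8 CPM in EGFP positive and 57.2, 55.9 and 58.5 CPM in EGFP negative libraries. In the mCherry sort it measured 56.2, 49.3 and 59.6 CPM in positive and 43.1, 46.1 and 37.5 CPM in negative libraries. Neither pair of groups overlapped, and positive cells lay above negative cells in both sorts. Hey1 rose by 0.52 ± 0.11 on the log2 scale in the EGFP sort (adjusted p = 0.0123, edgeR). The mCherry value was 0.39 ± 0.19 and was not called (adjusted p = 0.296, edgeR).

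Hes5 and Hes1 are the repressors most used as readouts of Notch activity in neural progenitors. Hes5 (chr4:154960923-154962371, plus strand) stood at 205, 242 and 325 CPM in mCherry positive and 366, 391 and 569 CPM in mCherry negative libraries. Its levels in the EGFP sort were 730, 459 and 424 CPM in positive and 441, 392 and 385 CPM in negative libraries. The mCherry groups did not overlap, with positive cells lower, and the EGFP groups overlapped. The log2 differences had opposite signs, -0.77 ± 0.23 in the mCherry sort (adjusted p = 0.133) and 0.38 ± 0.19 in the EGFP sort (adjusted p = 0.198), and neither was called by edgeR. The EGFP value was 0.11 without EGFP positive replicate 1 and 0.54 without EGFP positive replicate 3, where it was called (adjusted p = 0.0483). The difference between them was -1.19 ± 0.32 (adjusted p = 0.0926, edgeR), and it passed with DESeq2 (adjusted p = 0.0271).

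Hes1 (chr16:30064384-30067796, plus strand) overlapped between the mCherry groups, at 95.0, 80.3 and 86.2 CPM in positive and 88.0, 90.6 and 102 CPM in negative libraries. In EGFP positive libraries it was 97.5, 56.8 and 44.8 CPM, and in EGFP negative libraries 38.8, 46.0 and 40.9 CPM. EGFP positive replicate 1 lay above the rest of its sort. The log2 differences were -0.09 ± 0.17 (adjusted p = 0.805, mCherry) and 0.64 ± 0.25 (adjusted p = 0.120, EGFP) by edgeR. The EGFP value was 0.27 without EGFP positive replicate 1 and 0.86 without EGFP positive replicate 3, where it was called (adjusted p = 0.0168). Among the 3 targets on the RPKM scale, Hes5 made up 75.5% ± 4.85 of the summed level in mCherry positive cells (SD, n = 3) and 84.3% to 88.6% as means of the other groups. Hes1 held 17.6% ± 3.85 in mCherry positive and 6.15% ± 0.81 in EGFP negative cells.

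**Figure D4:**
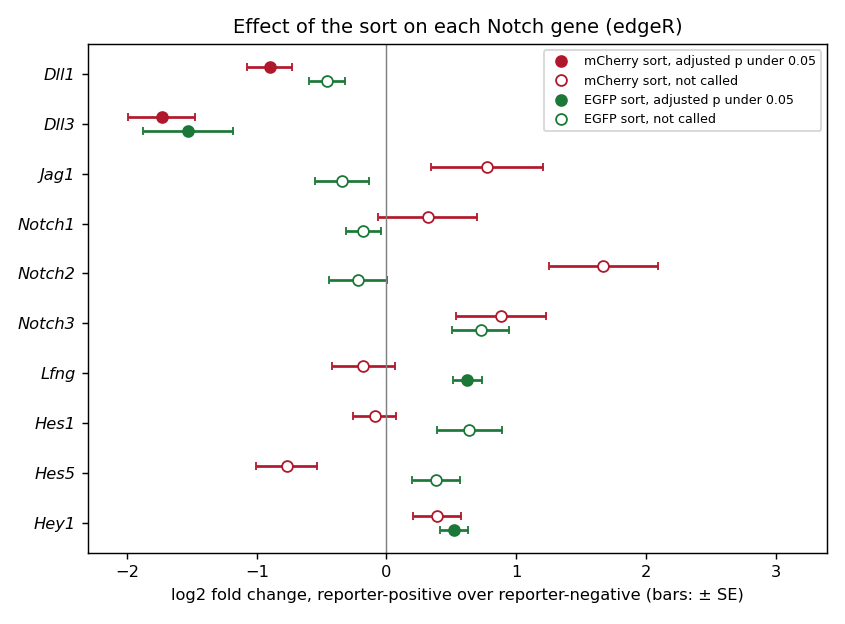
Log2 fold change of each Notch gene, reporter-positive over reporter-negative (horizontal axis; bars are ± SE, 3 against 3 libraries), for the mCherry sort and the EGFP sort; filled points passed an adjusted p of 0.05 in edgeR. The filled points are Dll1 and Dll3 in the mCherry sort and Dll3, Lfng and Hey1 in the EGFP sort.

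The promoter windows of Lfng and Hes5 are shown because both genes are known to respond to Notch and both windows hold the core letters bound by RBPJ. The motifs searched were the RBPJ core TGGGAA, the E-box CAGCTG and the N-box CACNAG, which Hes proteins bind, on both strands, and all matches are in capitals. Lfng is shown for 229 bases (GRCm38.p6, chr5:140607091-140607319, plus strand) and Hes5 for 250 bases (chr4:154960673-154960922, plus strand), both ending before the GENCODE gene start.

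Lfng: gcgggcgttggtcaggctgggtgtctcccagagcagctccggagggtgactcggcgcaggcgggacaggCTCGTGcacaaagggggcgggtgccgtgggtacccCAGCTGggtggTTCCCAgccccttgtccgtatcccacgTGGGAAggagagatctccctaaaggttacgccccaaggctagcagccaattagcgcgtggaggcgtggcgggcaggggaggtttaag

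Hes5: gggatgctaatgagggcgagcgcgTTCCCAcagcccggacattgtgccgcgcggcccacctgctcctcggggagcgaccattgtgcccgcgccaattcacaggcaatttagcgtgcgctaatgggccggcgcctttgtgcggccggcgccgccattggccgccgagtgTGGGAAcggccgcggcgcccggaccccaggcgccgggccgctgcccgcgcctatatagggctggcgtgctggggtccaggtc

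In Lfng the RBPJ core letters lie at 108 to 103 bases before the RefSeq start on the gene strand and at 135 to 130 on the other strand, beside an E-box at 146 to 141 and an N-box on the other strand at 181 to 176. In Hes5 they lie at 82 to 77 on the gene strand and at 226 to 221 on the other strand. The RBPJ core occurs in 21.6% of the 32851 RefSeq promoter windows of 250 bases and the N-box in 36.7%. RefSeq windows were matched for 8 of the 10 members. Hes1 and Hey1 had no window and were not searched. Among the 8, Lfng and Hes5 are the members whose window holds the RBPJ core. Of the exonic bases of Hes5, 31.8% are shared with Gm20421 on the opposite strand, which had 33 reads over the 12 libraries.

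Astrocyte and progenitor markers moved beside the fringe and target genes in the EGFP sort. Of 7 astrocyte genes, 5 were higher and 1 was lower in EGFP positive cells, with summed levels of 13169 to 16735 CPM against 6709 to 6839 CPM. Of 7 radial glia and progenitor genes, 4 were higher and 0 were lower, with sums of 10960 to 11655 CPM against 5881 to 6166 CPM. Slc1a3 is in both this list and the astrocyte list, so their counts and sums share that gene. Of 7 ependymal genes, 6 were higher and 0 were lower, with sums of 163 to 190 CPM against 88.7 to 99.4 CPM. Cell cycle sums in the EGFP sort were 719 to 793 CPM in positive and 829.9 to 848 CPM in negative cells. In the mCherry sort, astrocyte sums were also higher without overlap, at 6836 to 10181 against 3406 to 6325 CPM (1 gene higher, 0 lower). Ependymal sums there were 71.7 to 133 against 30.8 to 59.5 CPM (1 gene higher, 0 lower). Radial glia and progenitor sums overlapped there, at 5572 to 8582 against 6168 to 8300 CPM (0 higher, 0 lower). None of the astrocyte or progenitor markers was at 0 in any group, and their part in the Lfng and Hey1 values was not tested.

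Across sorts, the positive cells differed in 6 of the 10 Notch genes. Dll1, Notch1, Lfng, Hes5 and Hey1 were lower and Dll3 was higher in mCherry positive than in EGFP positive cells (edgeR, beside 17.6% of 18063 genes tested, 9.90% higher and 7.67% lower). The log2 differences were -1.08 ± 0.20 for Lfng (adjusted p = 0.00235), -1.06 ± 0.23 for Hes5 (adjusted p = 0.00649) and -0.59 ± 0.14 for Hey1 (adjusted p = 0.00953). They were -1.04 ± 0.32 for Notch1 (adjusted p = 0.0402), -0.54 ± 0.15 for Dll1 (adjusted p = 0.0235) and 1.05 ± 0.34 for Dll3 (adjusted p = 0.0475). Ranges did not overlap for 5 of these genes, beside 35.0% of all genes tested, and the exception was Dll3, whose ranges of 41.0 to 62.3 and 15.3 to 44.6 CPM met. Many marker genes moved with these calls. Of 7 genes in each list, 7 cell cycle, 4 radial glia, 3 ependymal, 3 mural and 2 astrocyte genes were lower in mCherry positive than in EGFP positive cells, and 6 microglia, 4 oligodendrocyte, 4 anterior pituitary and 3 neuron genes were higher. Their part in the 6 calls was not tested. With only the 6 positive libraries in the fit, 3 of the members were called (Notch1, Lfng and Hes5).

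The negative cells differed in 3 members. Notch1 and Notch2 were lower and Hes1 was higher in mCherry negative than in EGFP negative cells (edgeR, beside 3.96% of 18063 genes tested, 2.67% higher and 1.29% lower). The log2 differences were -1.51 ± 0.33 for Notch1 (adjusted p = 0.0174), -2.01 ± 0.37 for Notch2 (adjusted p = 0.00622) and 1.16 ± 0.23 for Hes1 (adjusted p = 0.0104). Dll3 stood 1.28 ± 0.34 higher at an adjusted p of 0.0505. Ranges did not overlap for 6 members (Dll3 and Hes1 higher, Notch1, Notch2, Notch3 and Hey1 lower), beside 25.3% of all genes tested. The direct test of the reporter effect between sorts called 0 of the 10 members by edgeR (1.44% of 18063 genes were called, 0.886% higher and 0.559% lower), with 5 at an unadjusted p under 0.05, 2 by DESeq2 and 0 by limma-voom. The shares of all genes for the unadjusted, DESeq2 and limma-voom counts are not given here. Both sorts' effects and the comparisons across sorts use the same 12 libraries and are not independent of each other.

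The order of the groups differed from gene to gene. By mean level, EGFP negative cells came first for Dll1, Notch1 and Notch2, EGFP positive cells for Notch3, Lfng, Hes5 and Hey1, mCherry negative cells for Dll3 and Hes1, and mCherry positive cells for Jag1. For Dll1 the order was EGFP negative (102 ± 4.26 CPM, SD, n = 3), mCherry negative (97.0 ± 5.36), EGFP positive (74.8 ± 11.7) and mCherry positive (51.6 ± 5.52), and only the neighbours at the top overlapped. For Dll3 it was mCherry negative (181 ± 58.5), EGFP negative (74.3 ± 10.6), mCherry positive (54.1 ± 11.5) and EGFP positive (26.3 ± 16.0), and only the neighbours at the bottom overlapped. No neighbours were separated for Jag1 or Hes1. Counting ranges that did not overlap, the mCherry sort separated 6 members (Notch2, Notch3 and Hey1 higher, Dll1, Dll3 and Hes5 lower in positive cells) beside 25.8% of all genes tested. The EGFP sort separated 4 (Lfng and Hey1 higher, Dll1 and Dll3 lower) beside 35.5%.

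Leaving out single libraries showed how much each call rested on 3 against 3 samples. In the mCherry sort, Dll1 kept its direction and lost its call in each of the 6 fits, at log2 values of -0.99 to -0.84 (adjusted p 0.0794 to 0.170, edgeR). Dll3 kept its call only without mCherry positive replicate 1, and its values in the 6 fits were -1.87 to -1.42 (adjusted p 0.0344 to 0.160). Without mCherry positive replicates 2 and 3 together, the libraries with the highest sums of pituitary transcripts, Dll1 was at -1.02 and Dll3 at -2.13, with adjusted p of 0.200 and 0.0540 by edgeR; that fit has 1 positive library, the one with 598 CPM of microglia markers, which is assumed to vary like the negative ones. In the EGFP sort, Lfng kept its call in all 6 fits (adjusted p 0.000379 to 0.0445). Dll3 lost it without EGFP positive replicate 2 (0.0829), EGFP negative replicate 2 (0.0711) or EGFP negative replicate 3 (0.0589), at log2 values of -1.34, -1.41 and -1.57. Hey1 lost it without EGFP positive replicate 2 (0.0698) or without any one of the 3 EGFP negative libraries (0.0546 to 0.0760), at log2 values of 0.51 to 0.54. Without EGFP positive replicate 1, 5 members were called in that sort (Dll1, Dll3, Notch3, Lfng and Hey1), and without EGFP positive replicate 3, 6 were called. Between the positive groups the 6 calls became 2 without EGFP positive replicate 2, 3 without EGFP positive replicate 3 and 3 without mCherry positive replicate 2. Between the negative groups the 3 calls became 1, Notch2, without EGFP negative replicate 1. The share of all genes called in each of these fits is not given here. In 1 fit of all 12 libraries, which gives both sorts 1 spread per gene, Lfng was not called in the EGFP sort (adjusted p = 0.0820) and Notch2 and Hes5 were called in the mCherry sort.

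**Figure D5:**
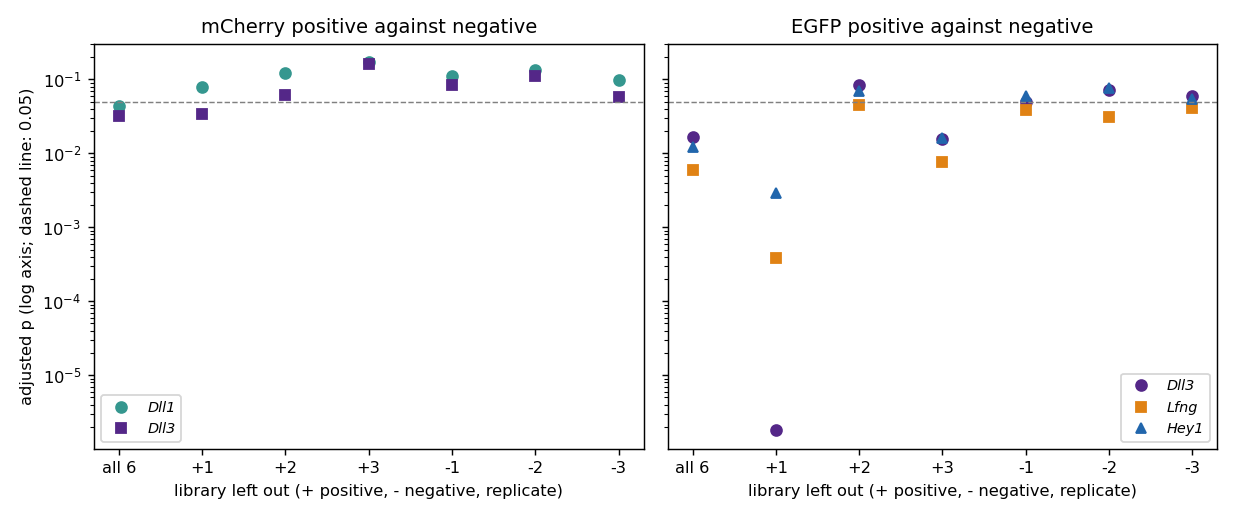
Adjusted p (log axis, edgeR) of the called Notch genes with all 6 libraries and with each library left out in turn; the dashed line marks 0.05. Lfng stays under the line in each fit of the EGFP sort, while Dll1 in the mCherry sort passes it with all 6 libraries and in no fit of 5.

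The rest of the pathway, a list of 63 other Notch genes, gave 1 call in the mCherry sort. Of 57 tested, 0 were higher and 1 was lower, beside 0.541% and 0.656% of all genes, so the count is close to that of any genes. It was the fringe enzyme Mfng (-1.68 ± 0.28, adjusted p = 0.0349, edgeR), which missed the threshold in each of the 6 fits with 1 library left out (-1.89 to -1.35, adjusted p 0.0501 to 0.170). At an unadjusted p under 0.05, 3 were higher and 6 lower, and the share of all genes at that threshold is not given here. The median log2 difference of the list was -0.09, beside 0.02 over all genes tested. Mfng stood at 14.1 to 18.3 CPM in mCherry positive and 35.9 to 71.6 CPM in mCherry negative libraries, and at 34.3 to 38.2 and 41.1 to 47.0 CPM in EGFP positive and negative libraries. None of the 10 receptor proteases, 8 nuclear complex genes or 10 corepressors was called in this sort by edgeR. Rbpj itself differed by -0.15 ± 0.26 in the mCherry sort (adjusted p = 0.795) and by -0.05 ± 0.23 in the EGFP sort (adjusted p = 0.916).

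In the EGFP sort, 3 of 58 tested pathway genes were higher and 6 were lower, beside 8.99% and 7.07% of all genes tested, so these genes were not called more often than others. The list's median was -0.05, beside -0.01 over all genes tested. The higher genes included the targets Fabp7, a lipid-binding protein of radial glia (0.54 ± 0.12, adjusted p = 0.0156, edgeR), and Hey2, the close relative of Hey1 (0.74 ± 0.17, adjusted p = 0.0193). Fabp7 is also in the radial glia list above. Its call was lost in 3 of the 6 fits with 1 library left out, those without EGFP positive replicate 2 or EGFP negative replicate 2 or 3 (0.52 to 0.56, adjusted p 0.0541 to 0.0753). The third was Adam17, a protease that can cut Notch receptors (0.90 ± 0.23, adjusted p = 0.0286). Among the lower genes were the corepressor Tle2 (-1.26 ± 0.14, adjusted p = 0.000733) and the coactivator Crebbp (-0.59 ± 0.14, adjusted p = 0.0183). Crebbp lost its call in 4 of those 6 fits, without EGFP positive replicate 2 or any one EGFP negative library (-0.63 to -0.53, adjusted p 0.0617 to 0.0882). The ligand genes Jag2 and Dlk2 and the coactivator Maml3 were also lower.

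Across sorts, positive cells differed in 13 of 58 pathway genes, 7 higher and 6 lower in mCherry positive cells, beside 9.90% and 7.67% of all genes tested. The smallest adjusted p belonged to the ubiquitin ligase gene Neurl1a (2.73 ± 0.33, adjusted p = 0.000131, edgeR), the ligand Jag2 (3.46 ± 0.58, adjusted p = 0.00134), the protease Furin (1.87 ± 0.31, adjusted p = 0.00137) and the corepressor Tle4 (1.35 ± 0.18, adjusted p = 0.000292). In negative cells 5 were higher and 0 lower in the mCherry sort, beside 2.67% higher and 1.29% lower of all genes tested. They were Tle4, Furin, Tle1, Ncor1 and Ctbp1, of which 4 are corepressors. With 1 library left out (edgeR), Tle4 kept its call in each fit (adjusted p 0.00107 to 0.0268). Tle1 lost it without mCherry negative replicate 2 (0.0678) or EGFP negative replicate 1 (0.120) or 2 (0.0587). Ncor1 lost it without any one EGFP negative library (0.0638 to 0.105), and Furin without EGFP negative replicate 1 (0.0561). The values of Ctbp1 in these fits are not given here. Hes2 and Neurog3 had no read in any library, which allows up to 3 counts per library, counting error only.

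Genes of most similar pattern were sought among 11409 genes whose mean was 5 CPM or more, by the root-mean-square difference of centred log2(CPM + 1) over the 12 libraries. For Dll3 they were Rcor2, a partner of repressor complexes (0.37), Olig2, a transcription factor of the oligodendrocyte lineage (0.38), and Ppp1r14b (0.39), beside 1.09 for the spread of Dll3 itself. For Notch1 they were Il17rd (0.32), Aff1 (0.35) and Supt16 (0.35), beside 0.80. For Hes5 they were Ckb (0.19), Fbln1 (0.19) and Rex1bd (0.20), beside 0.47. These distances describe the 12 libraries, which share sorts, depth and library preparation.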

How the data were processed

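The deposited files hold raw counts of reads per Ensembl gene, 1 file for each of 12 samples, which the authors had not normalized; per the submitters' processing notes, cutadapt 1.8, STAR 2.5.2b and HTSeq 0.6.1 were used on GRCm38. Left out were 5 summary entries that name no gene, with 31.4% to 38.2% of counted reads. Run settings, annotation release and strandedness are not given in the sources used here. Of 48709 identifiers, 48349 matched GENCODE M21, used for symbols, positions and exonic lengths.

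A separate fit for each sort used its 6 samples and edgeR 4.0.16 (R 4.3.3; TMM factors, filterByExpr with a minimum count of 10 and a minimum total of 15, group as the only term), with the quasi-likelihood test and Benjamini-Hochberg adjustment over all genes tested; calls are at an adjusted p under 0.05. Common variation between replicates (coefficient of variation) was 0.382 in the mCherry sort and 0.189 in the EGFP sort. The difference of effects and the comparisons across sorts used 1 fit of 12 samples. The SE is the log2 fold change divided by the root of the F statistic. The pipeline was tested on simulated data. Between replicates, the chi-square of the gene counts divided by its degrees of freedom was 6.54 to 97.0, so no 2 libraries differed by counting error alone. PCR reads carry no molecular identifiers, so limits from counts cover counting error only.

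Alternatives were no filter, a stricter filter (50 counts in 3 samples), DESeq2 1.42.0 and its size factors, limma-voom (limma 3.58.1), a replicate block, other sets of samples and each library left out. A length-trend offset, and the fit without both pituitary-rich libraries, were added after seeing the data. Members and gene lists were chosen with earlier results of these data known. All members are named; of the 63 other Notch genes, up to 4 called genes of smallest adjusted p per comparison, others being named after their values were seen; 1 called gene is not reported here.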

Additional observations from a re-analysis of the deposited data

Results flagged for a closer look

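The difference between the 2 reporter effects was called for 1 of 58 tested genes of the wider Notch list. The share over all 18063 genes tested was 1.44% (0.559% lower), so the count is close to that of any genes. The called gene was the fringe enzyme Mfng. Its mCherry effect minus its EGFP effect was -1.39 ± 0.31 on the log2 scale (adjusted p = 0.0420, quasi-likelihood test of edgeR, Benjamini-Hochberg adjustment, 3 samples in each of 4 groups). Mfng was lower in mCherry positive than in mCherry negative libraries without overlap. Leaving out 1 library at a time gave differences from -1.60 to -1.08, with adjusted p from 0.0198 to 0.133. The call remained in 2 of these fits, those without mCherry negative replicate 1 (0.0198) or mCherry negative replicate 3 (0.0465). It also passed with DESeq2 (adjusted p = 0.00294) and missed the threshold with limma-voom (adjusted p = 0.0758). In edgeR it missed with DESeq2 size factors (adjusted p = 0.0502) and with the replicate block (adjusted p = 0.0505). It passed in edgeR without a filter (adjusted p = 0.00788), with the stricter filter (0.0472) and with the length-trend offset (0.0363). With voom sample weights it passed as well (adjusted p = 0.0173).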

How the results depend on the processing

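The numbers of called members moved with the fit. The share of all genes called in each alternative fit is not given here. The counts below can therefore not be compared with those of other genes. For the mCherry sort, 2 members by the main test became 4 with DESeq2, 4 in the fit of all 12 samples, 0 without mCherry positive 2 and 3 together, and 0 to 1 with 1 library left out. For the EGFP sort, 3 became 5 without a filter, 5 with DESeq2, 6 with the length-trend offset and 1 to 6 with 1 library left out. For the difference of effects, 0 became 2 without a filter, 1 with the stricter filter, 2 with DESeq2, 3 with voom sample weights, 2 with the length-trend offset and 0 to 1 with 1 library left out. Between positive cells, 6 became 3 with only the 6 samples compared and 2 to 6 with 1 library left out; between negative cells, 3 became 5 without a filter, 5 with DESeq2 and 1 to 3 with 1 library left out. With the replicate number as a block, the counts were 3 (mCherry), 5 (EGFP), 2 (difference), 5 (positive cells) and 3 (negative cells). Same-numbered samples correlated at -0.02 to 0.13 in their deviations, so the numbers were not shown to pair samples. Of 973 recomputed log2 fold changes, 13 reversed, all of values not called. They were Lfng in the mCherry sort without mCherry negative replicate 1 (0.10; range -0.38 to 0.10); Hes1 in the mCherry sort with the length-trend offset (0.0027) and without mCherry positive 2 and 3 (0.042); Notch2 in the EGFP sort without EGFP positive replicate 1 (0.021; range -0.35 to 0.021); the difference for Dll3 with voom (0.045), with voom weights (0.48), without mCherry negative replicate 3 (0.06) and without EGFP positive replicate 1 (0.40; range -0.48 to 0.40); the difference for Notch3 without EGFP positive replicate 1 (-0.07), mCherry positive replicate 3 (-0.10) or mCherry negative replicate 2 (-0.19; range to 0.40); Notch2 between positive cells without EGFP positive replicate 3 (0.0021; range from -0.38); and Hes5 between negative cells without mCherry negative replicate 3 (-0.11; range to 0.23). The causes of these shifts were not tested. The members had 576 to 36656 reads per group.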
